A study of Ovis aries with 32 samples.

Results

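The 6 genes described here, TOMM5, TOMM40, TIMM8A, GRPEL1, MFN2 and MRPS33, encode parts of the mitochondrial protein import machinery, a mitochondrial fusion protein and a protein of the mitochondrial ribosome. Each was measured by 1 probe, so that they are 6 of the 15008 probes of a sheep gene expression array. They were chosen by probe name because the study lists them, or genes of the same function, as differing between lambs of cortisol-treated and untreated ewes, and this difference is therefore described below and not tested. The samples were the left ventricular free wall (LV) and the interventricular septum (IVS) of lambs (Ovis aries) killed at 14 days of age, with 8 CORT and 8 Control lambs in each tissue and 1 sample on each of 32 arrays. CORT lambs were born to ewes that were given cortisol at 0.5 mg/kg/day during the night, from day 115 of pregnancy to delivery, and Control lambs were born to ewes that received none. The lambs themselves were not treated, and the labels name no other treatment or genetic change in either group. By the methods each group of ewes bore a pair of twins, and the labels do not say which arrays they are, so that the arrays of a group may not all be from separate litters.

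Most mitochondrial proteins are made in the cytosol and must be imported. TOMM40 forms the channel of the translocase of the outer membrane, and TOMM5 is one of the small subunits of that complex. TIMM8A is a small chaperone of the intermembrane space that escorts hydrophobic proteins to the inner membrane, and GRPEL1 is the nucleotide exchange factor of the matrix chaperone that pulls proteins inwards. MFN2 is a mitofusin, a GTPase of the outer membrane that joins mitochondria and tethers them to the endoplasmic reticulum. MRPS33 belongs to the small subunit of the ribosome that translates the proteins encoded by mitochondrial DNA. The heart is rich in mitochondria, which supply the ATP for contraction.

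Only the GRPEL1 probe has a gene name in the scanner files, as a sheep gene identifier that the RefSeq gene table of the assembly ARS-UI_Ramb_v3.0 pairs with GRPEL1. The other 5 probes are described there as expressed sequence tags. Their names were taken from the gene lists of the study by value: in the deposited LV matrix of 8807 probes, exactly 1 probe had the listed fold change and p of each of TOMM5, TOMM40, TIMM8A and MFN2, and in the IVS matrix of 9001 probes 1 had those of MRPS33. TOMM5 and TIMM8A are listed for the IVS as well, where 2 probes fit each, and only 1 probe fit each of them in both tissues. The names thus rest on equal values and not on a match of sequence. The start of each of these 5 probes, its first 30 of 60 bases, and the whole of the GRPEL1 probe are printed to show what each spot detects. A second probe for GRPEL1 overlaps the first over the 57 bases that stand in capitals.
TOMM5 (A_70_P034521): ctcaatgaatgtgggtgtaattgtacatca
TOMM40 (A_70_P020836): agtcaacaaagggttgagtaatcatttcca
TIMM8A (A_70_P046246): gtactcaactgtaggctccctatctagtgt
MFN2 (A_70_P057956): tgaatactcctgtatcagggctgataatat
MRPS33 (A_70_P062916): cctcaaagaaatggaatgcatgactattta
GRPEL1 (A_70_P059667): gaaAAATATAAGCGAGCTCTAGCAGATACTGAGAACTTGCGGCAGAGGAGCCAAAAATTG
GRPEL1, second probe (A_70_P059666): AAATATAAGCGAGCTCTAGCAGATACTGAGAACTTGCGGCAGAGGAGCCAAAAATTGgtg
Over its 60 bases the share of G and C was 35% in the TOMM5 probe and 45% in the TOMM40 probe, with the other members between them. The longest run of bases that a member shared with any other probe was 11 for TOMM5 and TOMM40, 12 for MFN2, 14 for TIMM8A and 15 for MRPS33, so that only GRPEL1 has an overlapping probe. Read from the first base, the GRPEL1 and MRPS33 probes hold 0 stop triplets. TOMM5, TOMM40 and MFN2 have 0 in another forward frame, and the TIMM8A probe holds 1 in each of its 3 forward frames. Where in the transcripts the 5 tags lie was not analysed here.

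All values are log2 of the background-corrected intensity, quantile normalized over the 16 arrays of a tissue unless both tissues are compared, and a level is never set against that of another probe. All 6 probes passed the limit on dim probes on all 32 arrays. The LV arrays lay on slides 1 and 2, each with 4 arrays of either group, and the IVS arrays on slide 3 (2 Control and 2 CORT), slide 4 (3 and 2) and slide 5 (3 and 4). Slides 1, 2 and 5 were scanned on the same day and slides 3 and 4 on others. The median spot intensity ran from 131 to 332 over all arrays, with the arrays of slide 3 between 200 and 332 and those of slide 5 between 131 and 217. Over all probes, slide accounted for a median of 5.67% of the variance within groups in the LV and 34.4% in the IVS. MB, a marker of cardiac muscle, was well above background on all 32 arrays. The precision of the values is limited by the number of arrays.

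In the LV, the mean of every one of the 6 genes was higher in CORT than in Control lambs, by 0.05 to 0.31 on the log2 scale, and the groups overlapped for all 6 (0.0174% of all probes had groups without overlap). Their median difference was 0.18, beside 0.0015 over the 11517 probes tested, of which 50.9% were higher in CORT. For TOMM5, TOMM40, TIMM8A and MFN2 the unadjusted p of limma was under 0.05, as it was for 3.86% of all probes (1.66% higher and 2.2% lower in CORT). This contrast chose the members, so nothing follows from these counts. After Benjamini-Hochberg adjustment 0 of the 11517 probes passed, and 444 had an unadjusted p under 0.05. In whole tissue, fewer cells of a type and less RNA per cell cannot be told apart.

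Of the outer membrane translocase, TOMM5 lay between 11.14 and 11.59 on the Control LV arrays (median 11.43) and between 11.48 and 11.74 on the CORT arrays (median 11.62). All 8 CORT arrays were above the Control mean and 4 were above every Control array. The means of 11.42 ± 0.15 (Control) and 11.62 ± 0.099 (CORT; SD, n = 8 each) differed by 0.19 (SE 0.066), with 0.18 on slide 1 and 0.21 on slide 2. TOMM40, the channel, ran from 7.21 to 7.59 in Control (median 7.35) and, on CORT arrays, from 7.29 to 7.78 (median 7.48). Here 6 of 8 CORT arrays were above the Control mean and 3 above every Control array. The difference of 0.15 (SE 0.073) came from slide 2, where it was 0.37 and every CORT array lay above every Control array, while on slide 1 it was -0.06. From the processed signal of the scanner, scaled to its 75th percentile on each array, it was 0.26.

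TIMM8A, the intermembrane chaperone, lay between 8.99 and 9.48 on the Control LV arrays (median 9.17) and between 9.08 and 9.75 on the CORT arrays (median 9.51). With 7 of 8 CORT arrays above the Control mean and 5 above every Control array, it had the most CORT arrays of the 6 genes outside the Control range. The mean was 9.20 ± 0.21 in the Control group and 9.46 ± 0.19 in the CORT group (SD, n = 8 each), higher by 0.26 (SE 0.097), and slides 1 and 2 gave 0.33 and 0.18. GRPEL1, which was not found in the gene lists of the study, ran from 9.12 to 9.85 in Control (median 9.46) and, on CORT arrays, from 9.30 to 9.74 (median 9.53). All CORT arrays lay inside the Control range. Its difference was 0.05 (SE 0.093), at -0.12 on slide 1 and 0.23 on slide 2. The second GRPEL1 probe gave 0.13 (SE 0.10).

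The mitofusin MFN2 lay between 11.90 and 12.85 on the Control LV arrays (median 12.56) and between 12.46 and 12.94 on the CORT arrays (median 12.73). The Control arrays fell apart: replicates 2, 4 and 6 were at 11.99, 11.90 and 11.91 and the other 5 were at 12.54 or above, whereas no CORT array was below 12.46. All 8 CORT arrays were above the Control mean, though only 2 were above every Control array. The difference in means was 0.31 (SE 0.14), from 12.40 ± 0.40 (SD, n = 8) to 12.71 ± 0.17 (SD, n = 8), and the difference in medians was smaller. By slide it was 0.28 and 0.33. MRPS33, of the mitochondrial ribosome, ran from 11.74 to 12.27 in Control (median 12.08) and, on CORT arrays, from 12.05 to 12.65 (median 12.15). All 8 CORT arrays were above the Control mean, but only replicate 3, at 12.65, was above every Control array. The difference was 0.18 (SE 0.087), and 0.11 without that array.

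**Figure D1:**
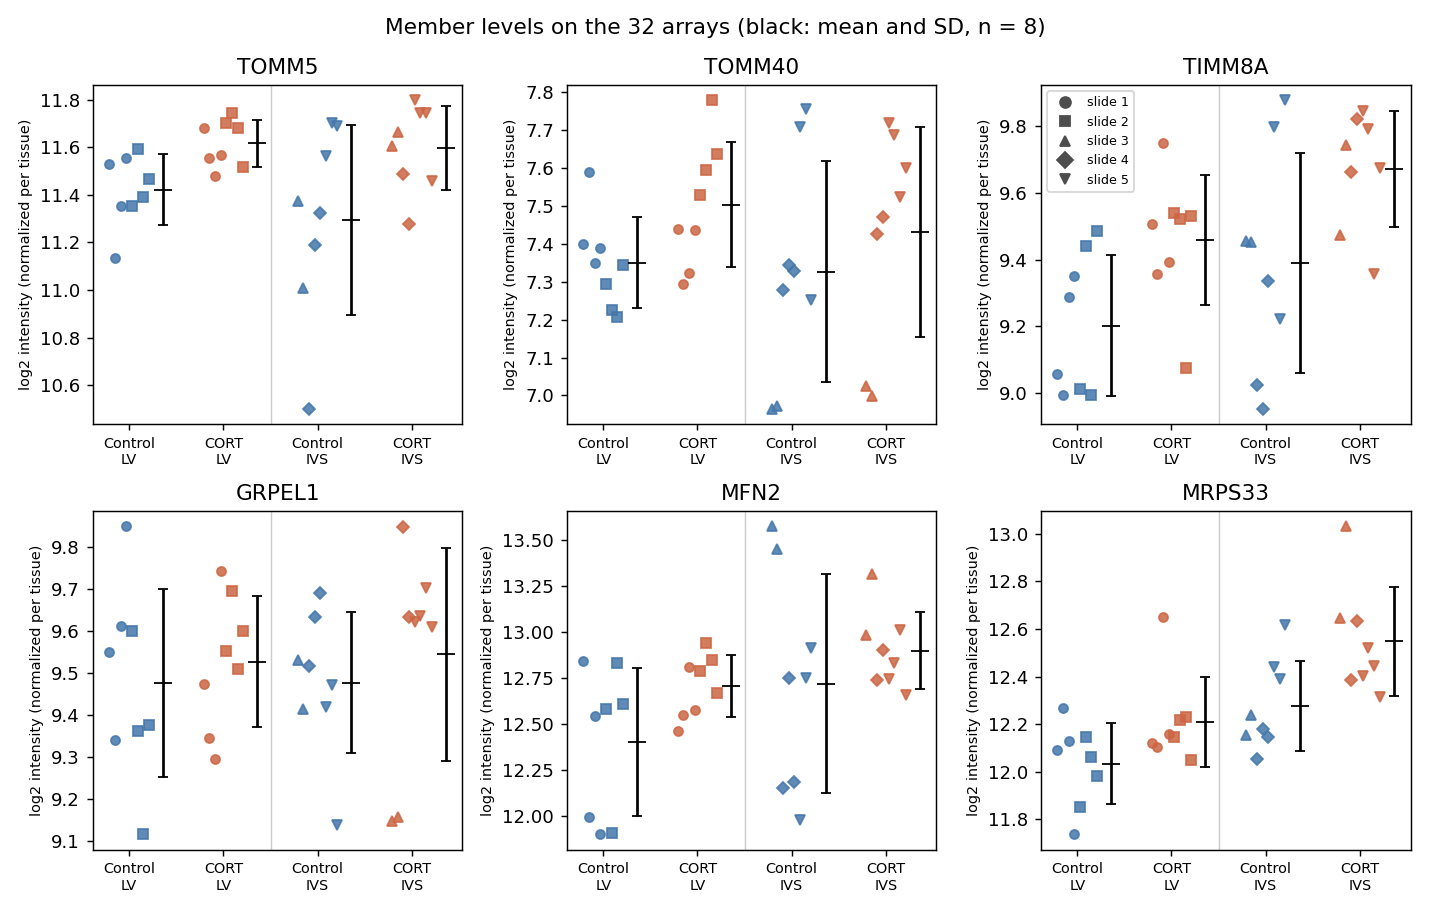
Log2 intensity of the 6 genes on each of the 32 arrays (vertical axes, normalized within the tissue), with Control arrays in blue, CORT arrays in orange, the slide given by the shape of the point, and the mean and SD of the 8 arrays of a group in black. MFN2 is near 12 on 3 Control LV arrays and above 12.4 on all CORT LV arrays, and TOMM40 is lowest on the 4 arrays of slide 3.

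In the IVS the means of all 6 genes were again higher in CORT lambs, by 0.07 to 0.30, with a median of 0.22 beside -0.0082 over the 11685 probes tested, of which 47.2% were higher in CORT. The groups overlapped for all 6 genes, and only 0.00856% of all probes had groups without overlap. The unadjusted p was under 0.05 for TIMM8A and MRPS33, against 3.59% of all probes (1.39% higher and 2.19% lower in CORT), and again 0 probes passed adjustment while 419 had an unadjusted p under 0.05. The members' differences did not lie evenly over the slides. Differences on slides 3 and 4 rest on 2 or 3 arrays a group, so they are given as values only.

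TOMM5 lay between 10.50 and 11.70 on the Control IVS arrays (median 11.35) and between 11.28 and 11.80 on the CORT arrays (median 11.63). The lowest array was Control replicate 3, and without it the difference of 0.30 (SE 0.15) was 0.19. The difference was 0.44 and 0.38 on slides 3 and 4 but 0.03 on slide 5, where all 7 arrays were at 11.46 or above. TOMM40 ran from 6.97 to 7.76 in Control (median 7.30) and, on CORT arrays, from 7.00 to 7.72 (median 7.50), and no CORT array was above every Control array. Its levels followed the slide: the 4 arrays of slide 3 lay between 6.97 and 7.03, the 5 of slide 4 between 7.28 and 7.47 and the 7 of slide 5 between 7.25 and 7.76. Slide accounted for 83.3% of its variance within groups, the most of the 6 genes. The difference in TOMM40 between CORT and Control was 0.11 (SE 0.14), 0.08 (SE 0.069) with slide as a block and 0.25 from the processed signal. With 1 array left out it ran from 0.05 (without Control replicate 1) to 0.17 (without CORT replicate 2).

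TIMM8A lay between 8.95 and 9.88 on the Control IVS arrays (median 9.39) and between 9.36 and 9.85 on the CORT arrays (median 9.71), so that all CORT arrays lay inside the Control range. In 7 of 8 CORT lambs it was above the Control mean. The difference of 0.28 (SE 0.13) reached 0.64 on slide 4, where Control arrays were low, against 0.15 and 0.03 on slides 3 and 5. GRPEL1 ran from 9.14 to 9.69 in Control (median 9.49) and, on CORT arrays, from 9.15 to 9.85 (median 9.63). Both low CORT arrays, at 9.15 and 9.16, were those of slide 3. Its difference was 0.07 (SE 0.11) in all, but -0.32, 0.13 and 0.30 on slides 3, 4 and 5, and the second probe gave 0.09 (SE 0.13). With 1 array left out it ran from 0.02 (without Control replicate 8) to 0.12 (without CORT replicate 1).

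MFN2 lay between 11.98 and 13.58 on the Control IVS arrays (median 12.75) and between 12.66 and 13.32 on the CORT arrays (median 12.87). As in the LV, 3 Control arrays were low, replicates 3, 5 and 6 at 12.15, 12.18 and 11.98, and the CORT arrays were closer together (SD 0.21, n = 8) than the Control arrays (SD 0.60, n = 8). The 4 arrays of slide 3 lay between 12.98 and 13.58, which puts both its Control arrays above every other IVS array. The difference of 0.18 (SE 0.21) took values of -0.37, 0.46 and 0.26 on slides 3, 4 and 5, and lay between 0.07 and 0.30 with any 1 array left out. MRPS33 ran from 12.05 to 12.62 in Control (median 12.21) and, on CORT arrays, from 12.31 to 13.03 (median 12.48). All 8 CORT arrays were above the Control mean and 3 above every Control array. The difference of 0.27 (SE 0.11), a 1.21-fold higher mean, broke down into 0.64, 0.38 and -0.06 on slides 3, 4 and 5.

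On slides 3 and 4 together the differences of TOMM5, TIMM8A and MRPS33 were 0.43, 0.43 and 0.52, and on slide 5 alone they were 0.03, 0.03 and -0.06. GRPEL1 lay the other way, at -0.11 on slides 3 and 4 and 0.30 on slide 5. These splits were chosen after the values were seen, and the part of the slide in them was not tested. With slide as a block, the IVS differences were 0.24 for TOMM5, 0.25 for TIMM8A, 0.25 for MRPS33, 0.16 for MFN2 and 0.09 for GRPEL1, close to those without. The cortisol difference in the IVS minus that in the LV, from 1 fit to all 32 arrays, was 0.12 (SE 0.16) for TOMM5 and 0.10 (SE 0.14) for MRPS33, the highest 2, and -0.12 (SE 0.26) for MFN2, the lowest. Each was smaller than its own SE.

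**Figure D2:**
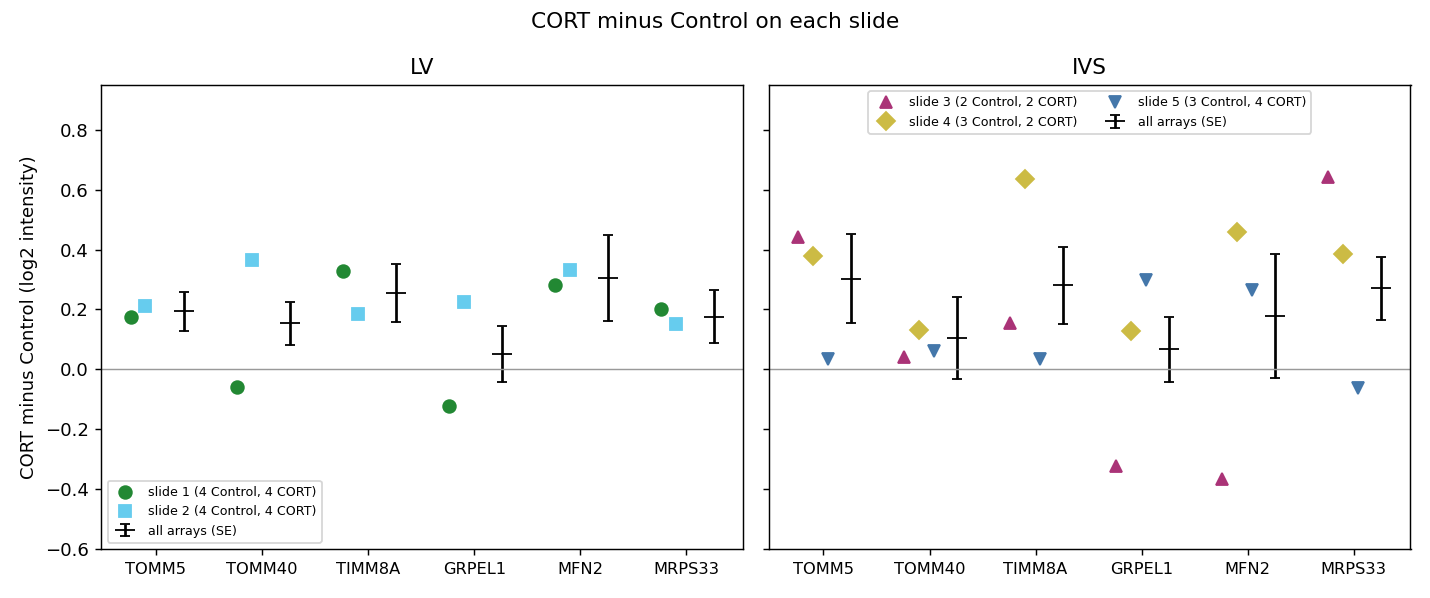
CORT minus Control in log2 intensity (vertical axis) for each gene on each slide (coloured shapes) and over all 16 arrays of the tissue with its SE (black), for the LV on the left and the IVS on the right. In the IVS the values of TOMM5, TIMM8A and MRPS33 are above 0.15 on slides 3 and 4 and near 0 on slide 5, and those of GRPEL1 and MFN2 are below 0 on slide 3.

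Levels in the 2 tissues were compared after all 32 arrays had been quantile normalized together, by limma with Benjamini-Hochberg adjustment over 12343 probes, as the mean over Control and CORT of the IVS minus the LV. This difference was not used to choose the members. None of the 6 genes passed at an adjusted p of 0.05, while 11.3% of all probes did (6.16% as higher in the IVS), and 2 of the 6 had an unadjusted p under 0.05, against 27.7% of all probes. A p above the threshold does not show equal levels. Tissue lay on separate slides and cannot be told apart from slide, and the LV and IVS come from the same lambs, which the labels do not tie together and the fit does not use.

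MRPS33 was closest to passing. It lay between 11.80 and 12.69 in the LV (median 12.18) and between 12.00 and 12.99 in the IVS (median 12.35), and 12 of 16 IVS arrays were above the LV mean. The IVS was higher by 0.19 (SE 0.069), with an adjusted p of 0.0646 from limma, and by 0.23 (SE 0.073, adjusted p = 0.0509 from limma) when only the 7 IVS arrays scanned on the day of the LV arrays were used. Leaving out Control LV replicate 2, CORT LV replicate 3, Control IVS replicate 3 or CORT IVS replicate 8 took the adjusted p of limma to 0.0495, 0.022, 0.0479 and 0.0458. Over all 32 arrays left out in turn, it ran from 0.022 to 0.105. TOMM5 ran from 11.21 to 11.80 in the LV (median 11.61) and from 10.43 to 11.74 in the IVS (median 11.46), and was lower in 10 of 16 IVS arrays. The difference of -0.21 (SE 0.082, adjusted p = 0.0975 from limma) was 0.02 on the 7 arrays of the same scan day. Its adjusted p of limma was 0.0453 without Control IVS replicate 8 and 0.0486 without replicate 7, and up to 0.157 with another array left out.

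The other 4 genes differed less clearly. TOMM40 was lower in the IVS by 0.15 (the difference was -0.15, SE 0.077, adjusted p = 0.199 from limma) but 0.07 higher on the 7 arrays of the same scan day, and the difference was -0.38 from the processed signal and -0.05 with weighted arrays. GRPEL1 was below the LV mean on 13 of 16 IVS arrays, at -0.14 (SE 0.072, adjusted p = 0.202 from limma), and at -0.16 on the 7 arrays of the same scan day. MFN2 was above it on 13 of 16 arrays, at 0.17 (SE 0.13, adjusted p = 0.429 from limma), and TIMM8A on 8 of 16, at 0.05 (SE 0.081, adjusted p = 0.734 from limma). MFN2 and TOMM5 had the widest spread in the IVS, with SDs of 0.45 and 0.34 over the 16 arrays against 0.33 and 0.15 in the LV.

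Whether the 6 genes varied together from lamb to lamb was asked with the deviations of each array from the mean of its group, which do not hold the cortisol difference. Of the 15 pairs, 7 had a positive Pearson r in the LV (n = 16 arrays) and 9 in the IVS (n = 16 arrays), with medians of -0.02 and 0.11, so that the 6 genes did not move as 1 block. Over the 30 tests, 1 pair passed Benjamini-Hochberg adjustment in the IVS and 0 in the LV, where 1 had an unadjusted permutation p under 0.05. No pair within the import machinery passed: TOMM5 and TOMM40, subunits of the same complex, had an r of -0.06 in the LV and 0.32 in the IVS (permutation p = 0.816 and 0.259, adjusted 0.906 and 0.584). TOMM40 and GRPEL1 had 0.35 and 0.47 (permutation p = 0.178 and 0.0664, adjusted 0.495 and 0.332). Of all probes tested, 21.8% in the LV and 22.2% in the IVS had an r with TOMM40 at least as high.

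**Figure D3:**
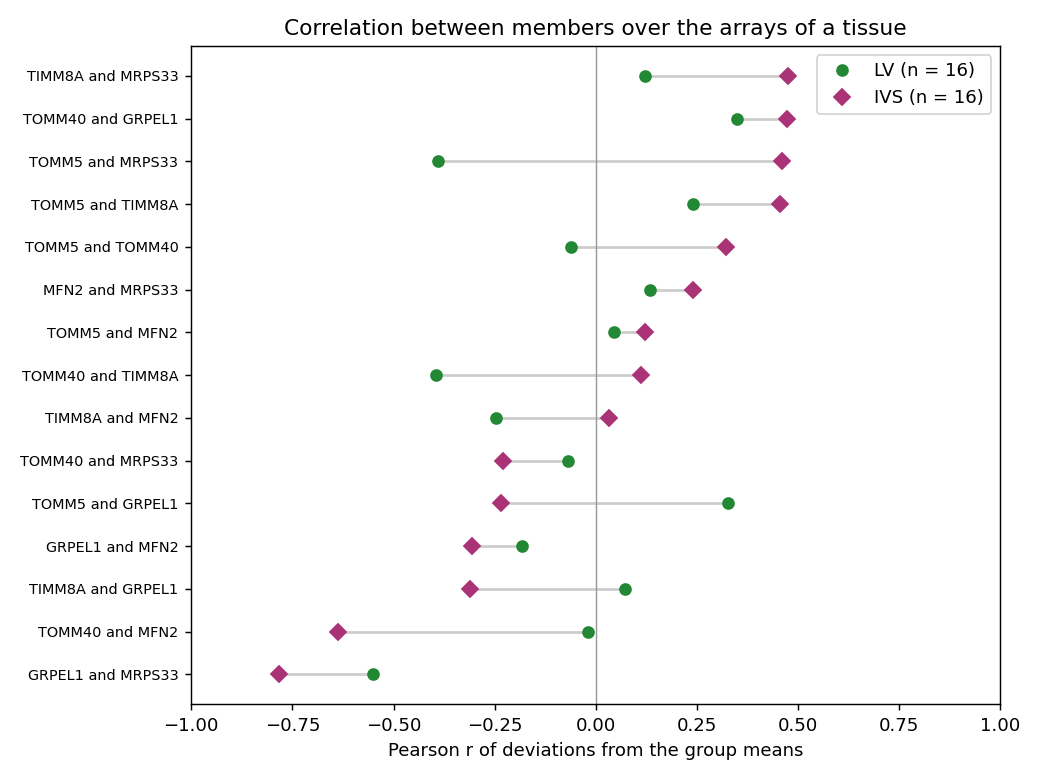
Pearson r (horizontal axis) of the deviations from the group means for each of the 15 pairs of the 6 genes, over 16 LV arrays (green) and 16 IVS arrays (purple), ordered by the IVS value. GRPEL1 and MRPS33 have the lowest r in both tissues, at -0.55 and -0.78.

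The pair that passed was GRPEL1 and MRPS33, and it was opposite in sign: where GRPEL1 was high, MRPS33 was low. In the IVS r was -0.78 (permutation test within groups, two-sided, p = 0.00073, adjusted p = 0.0219) and Spearman's rho was -0.60 (permutation p = 0.0217, adjusted 0.419). The r was -0.82 among Control and -0.77 among CORT arrays. In the LV it was -0.55 (permutation p = 0.0299, adjusted 0.299) with a rho of -0.46 (permutation p = 0.0934, adjusted 0.419). As a background, 0.753% of the probes tested had an r with GRPEL1 as low as this in the IVS, and 8.35% did in the LV. Of 11313 other probes measured in both tissues, 23 were as low as MRPS33 in both. The second GRPEL1 probe, which followed the first with an r of 0.93 in either tissue, had an r with MRPS33 of -0.57 in the LV and -0.72 in the IVS.

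In the IVS this relation weakened under several settings. Without the 2 arrays farthest from the median of GRPEL1, which were the CORT arrays of slide 3, r in the IVS was -0.70 (permutation p = 0.0132, adjusted 0.132). With deviations from the mean of the group on its own slide it was -0.42 in the IVS (permutation p = 0.217, adjusted 0.724). In the LV the same deviations gave -0.65 (permutation p = 0.0361, adjusted 0.692), further from 0 than the -0.55 without slides. Leaving out Control IVS replicate 6, Control IVS replicate 8 or CORT IVS replicate 2 gave adjusted permutation p of 0.0579, 0.173 and 0.0813.

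**Figure D4:**
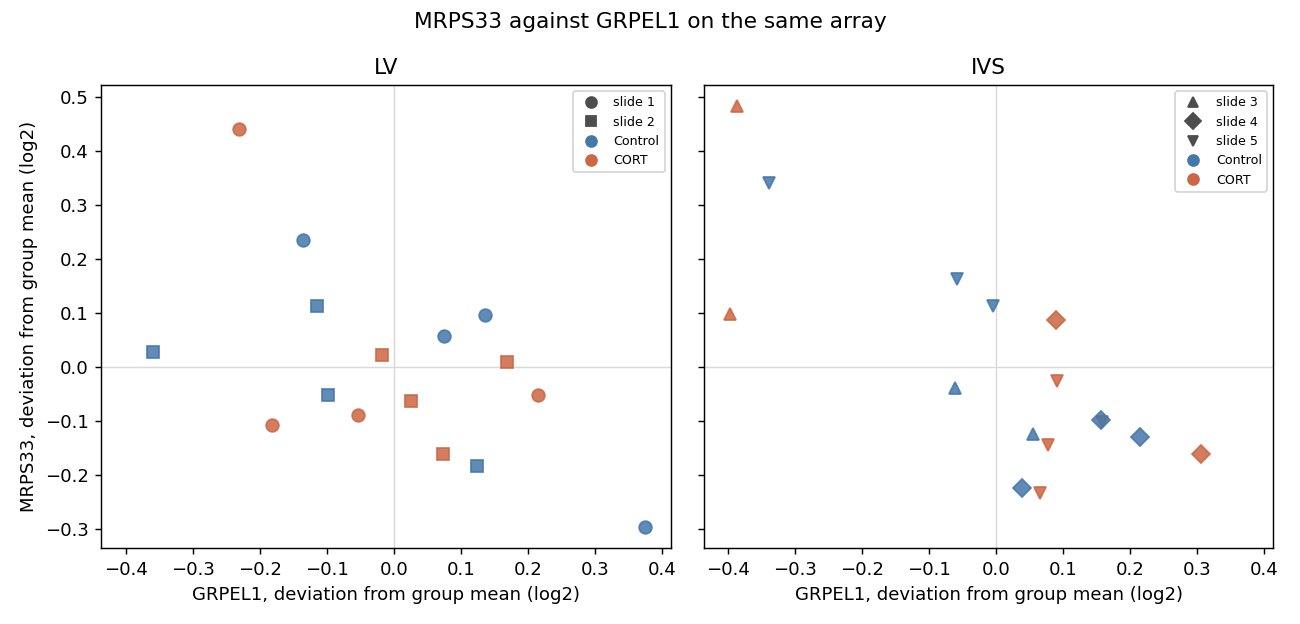
MRPS33 (vertical axis) against GRPEL1 (horizontal axis) on the same array, both as log2 deviations from the mean of the array's group, for 16 LV arrays (left) and 16 IVS arrays (right), with colour for the group and shape for the slide. The points run from upper left to lower right, and in the IVS both CORT arrays of slide 3 stand at the upper left, near -0.4 for GRPEL1.

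TOMM40 and MFN2, both proteins of the outer membrane, were also opposite in the IVS, with an r of -0.64 (permutation p = 0.00782, adjusted 0.117). Their rho was -0.55 (permutation p = 0.0318, adjusted 0.419). An r with TOMM40 as low as -0.64 was not rare, since 12.5% of the probes tested in the IVS had one. In the LV the r of TOMM40 and MFN2 was -0.02 (permutation p = 0.942, adjusted 0.942). In the IVS without the 2 arrays farthest from the TOMM40 median r was -0.70 (permutation p = 0.00156, adjusted 0.0468). Within slides it was -0.41 (permutation p = 0.561, adjusted 0.817). On the 4 arrays of slide 3 TOMM40 was at its lowest and MFN2 high. TIMM8A and MRPS33 had an r of 0.47 in the IVS (permutation p = 0.0553, adjusted 0.332) and 0.12 in the LV (permutation p = 0.653, adjusted 0.89).

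The named genes whose deviations were most like those of a member are given as a description, by the lower of the r over 16 LV and the r over 16 IVS arrays, out of 1038 named probes (1037 for GRPEL1). For TOMM5 these were RGS2 (0.74), a regulator of G protein signalling, AQP2 (0.67), a water channel, and BMPR1B (0.58), a receptor for bone morphogenetic proteins. Both probes of RPL14 (0.80 and 0.79), a protein of the cytosolic ribosome, and PDGFB (0.79), a growth factor, came first for TOMM40. For TIMM8A they were EIF1AX (0.59), a translation initiation factor, ACVR2A (0.59), an activin receptor, and PCNA (0.53), the sliding clamp of DNA polymerase. GRPEL1 was most like its own second probe (0.93), followed by ITGB5 (0.79), an integrin, and CDK2 (0.74), a cell cycle kinase. MFN2 had the weakest neighbours, ADRB3 (0.50), a beta-adrenergic receptor, GPD2 (0.46), a mitochondrial glycerol-3-phosphate dehydrogenase, and the probe named glut4 (0.44), a glucose transporter. For MRPS33 they were TXNDC17 (0.65), a thioredoxin-like protein, RPL34 (0.63), of the cytosolic ribosome, and PPP1R12A (0.62), a subunit of myosin phosphatase. All arrays of a tissue share its normalization and slides.

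Few other mitochondrial genes carry a name on this array. Of 48 import genes listed, 2 were named, GRPEL1 and the chaperone HSP90AA1, and neither had an unadjusted p under 0.05 in either tissue. For HSP90AA1 the cortisol difference was 0.04 (SE 0.13) in the LV and -0.43 (SE 0.34) in the IVS. None of the 27 listed genes of fusion and fission was named. Of 84 genes of the mitochondrial ribosome only MRPL32 was, with 0.06 (SE 0.20) in the LV and -0.05 (SE 0.24) in the IVS. The study lists MRPL19, MRPL21, MRPL48 and MRPS10 as higher in the LV of CORT lambs. Their probes carry no name here and were not traced, so the named genes do not stand for all mitochondrial genes.

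Of 98 genes of oxidative phosphorylation 6 were named and measured. In the LV 1 of the 6 had an unadjusted p under 0.05, as did 3.86% of all LV probes. It was ATP5MC1, the c subunit of ATP synthase, at 17.75 ± 0.10 in the Control group against 17.89 ± 0.16 in the CORT group (SD, n = 8 each), a difference of 0.15 (SE 0.068, adjusted p = 0.999 from limma). Over the 6 genes the median difference was 0.02 in the LV, with 4 higher and 2 lower, and 0.11 in the IVS, with 5 higher and 1 lower and 0 under an unadjusted p of 0.05. Of 3 named genes of mitochondrial biogenesis 0 had an unadjusted p under 0.05: for NRF1, a transcription factor of nuclear genes for mitochondrial proteins (by its brightest probe in each tissue), the difference was 0.11 (SE 0.084) in the LV and 0.09 (SE 0.096) in the IVS, and for GABPA, another such factor, it was -0.03 (SE 0.064) and -0.12 (SE 0.067). The study, however, lists GABPA as higher in the LV of CORT lambs, which this named probe did not show.

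Markers of other cell types were measured beside these values, and their part in them was not tested. The summed level of each of 7 marker lists overlapped between Control and CORT arrays in both tissues. Such overlap is the rule, since only 0.0174% of LV and 0.00856% of IVS probes had groups without it. A sum also mainly follows the brightest genes of its list, such as VIM, at 16.64 in Control LV against 8.14 for COL1A2. The overlap therefore does not measure the amounts of the cell types. In the IVS the level of MB, the 1 marker of cardiac muscle named on the array, ran from 17.41 to 18.57 on the Control and from 18.10 to 18.37 on the CORT arrays. For 2 erythrocyte markers, HBB and AHSP, the sum ran from 9.86 to 15.79 in Control and from 11.91 to 14.80 in CORT lambs. The 5 fibroblast markers ran from 16.89 to 17.45 and from 16.76 to 17.41. HBB was higher in CORT lambs by 0.24 (SE 0.70) in the LV and 0.30 (SE 0.80) in the IVS. AHSP was higher by 0.09 (SE 0.14) and 0.21 (SE 0.15). The study lists another globin gene, HBA1, as lower in the LV of CORT lambs, and that gene was not among these 2 markers. Of the adipocyte, endothelial and smooth muscle markers, 0 had an unadjusted p under 0.05 in either tissue. Their largest differences for adipocytes were those of FABP4 (0.12, SE 0.68, LV) and LPL (-0.16, SE 0.14, IVS). The adipocyte markers did not go 1 way, with 3 higher and 2 lower in CORT lambs in the LV, and 3 higher and 1 lower in the IVS. For endothelium the largest were those of PECAM1 (0.15, SE 0.13, LV) and KDR (-0.22, SE 0.12, IVS). All 4 endothelial markers were higher in CORT lambs in the LV, and in the IVS 1 was higher and 3 were lower. CNN1, of smooth muscle, differed by 0.44 (SE 0.37) in the LV and -0.14 (SE 0.22) in the IVS. In the LV the 5 fibroblast markers did not go 1 way, with 3 higher and 2 lower in CORT lambs and a median difference of 0.0084. Of them the fibrillar collagens COL3A1 and COL1A2 had differences of -0.28 (SE 0.10, adjusted p = 0.999 from limma) and -0.21 (SE 0.11, adjusted p = 0.999 from limma). That of VIM, an intermediate filament protein, was 0.15 (SE 0.12, adjusted p = 0.999 from limma). COL3A1 and CD14, a monocyte marker (-0.16, SE 0.071, adjusted p = 0.999 from limma), were the 2 markers with an unadjusted p under 0.05, as 3.86% of all LV probes had. CD3E and CD3D, the other leukocyte markers tested in the LV, differed by 0.15 (SE 0.22) and -0.06 (SE 0.085). Of the 3 leukocyte markers tested, 1 was thus higher and 2 were lower in CORT lambs, and the same split was seen in the IVS.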

How the data were processed

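The LV and IVS RNA was labelled with 1 dye and read on Agilent sheep arrays. The authors deposited, per the file headers, the mean intensity and median local background of each spot (Feature Extraction 10.1.1.1), together with log2 matrices, 1 for each tissue, after their own background correction, quantile normalization and brightness filter. The genome build is not given in the sources used here.

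Starting from the spot intensities, the background was removed with normexp (offset 50), and arrays were quantile normalized within a tissue (16 arrays) or, to compare tissues, together (32 arrays), in limma 3.58.1 under R 4.3.3. Outlier spots were dropped and the spots of a probe averaged. Probes that exceeded the 95th percentile of the negative controls by 10% on at least 8 arrays were tested with lmFit and eBayes, two-sided. Correlations of deviations from group means were tested by 100000 permutations within groups and adjusted over 30 tests. The fits were tested on simulated data. Groups and replicate numbers came from the sample titles. Genes were named as the 6 members, other probes of these genes, the 3 named probes most like each member, and, of each list, the genes with an unadjusted p under 0.05 or else those with the largest differences. The members and lists were chosen with earlier results of these data known. Of a gene with several probes, lists used the brightest. Alternatives covered the background (another offset, none), the scaling (cyclic loess, or the processed signal by its 75th percentile), the deposited matrix, other limits on dim probes, a slide or replicate block, weighted arrays, trended and robust eBayes, either treatment alone, and leaving out each array. Epicardial fat was not analysed here. Differing statements of the RNA amount and dye change no value here.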

Additional observations from a re-analysis of the deposited data

Results flagged for a closer look

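In the 24 groups of 8 arrays, 6 genes in 4 groups each, a gap between the highest or lowest array and its neighbour that was large against the range of the group was found for MRPS33 alone, in 2 groups. Chance gives such a gap in about 1 of 20 groups. In the LV, CORT replicate 3 was at 12.65 and the other 7 CORT arrays lay between 12.05 and 12.23, a gap of 0.696 of the range. In the IVS, CORT replicate 2 was at 13.03 and the other 7 lay between 12.31 and 12.65, a gap of 0.537 of the range. On these arrays GRPEL1 was at the low end of its CORT group, at 9.30 in the LV, the lowest of 8, and at 9.16 in the IVS.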

How the results depend on the processing

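Under the 8 processing and design alternatives run for the members' cortisol differences, all 96 values remained above 0, but some changed in size. The replicate block, and the slide block in the LV, hold equal numbers of Control and CORT arrays, so they cannot change these differences. The other alternatives rework the contrast that chose the members, so the count is not a test. With the processed signal the difference of TOMM40 was 0.26 in the LV and 0.25 in the IVS, against 0.15 and 0.11, and that of GRPEL1 was 0.03 in the LV against 0.05. In the IVS GRPEL1 was at 0.11 with cyclic loess and 0.12 with weighted arrays, against 0.07, and MFN2 at 0.28 with weighted arrays, against 0.18. The splits of the IVS slides, chosen after seeing the data, moved or turned some: slide 5 alone gave 0.30 for GRPEL1 and -0.062 for MRPS33, and slides 3 and 4 alone gave 0.52 for MRPS33 and -0.11 for GRPEL1. With 1 array left out, the LV difference of GRPEL1 ran from -2.29e-05 (without Control LV replicate 7) to 0.10 (without Control LV replicate 4). In the IVS that of GRPEL1 ran from 0.02 to 0.12, that of TOMM40 from 0.05 to 0.17 and that of MFN2 from 0.07 (without Control IVS replicate 6) to 0.30 (without Control IVS replicate 1). The number of LV probes with an unadjusted p under 0.05 was 744 with weighted arrays. The number of IVS probes was 879 with slide as a block, 639 with the replicate block, 871 on slide 5 alone, 1451 on slides 3 and 4 alone, and between 228 and 852 with 1 array left out, with Control IVS replicates 1, 2 and 3 (261, 253 and 228) and 5 and 8 (708 and 852) moving it most. Between tissues, 72 probes passed with the Control arrays alone and 43 with the CORT arrays alone, where 1392 passed with all arrays. The difference of TIMM8A was -0.0026 with the processed signal, that of TOMM40 was -0.38 with the processed signal and -0.05 with weighted arrays, and that of MFN2 was 0.10 and 0.04. Those of TIMM8A and MFN2 on slide 5 against the LV were 0.17 and 0.04, and on slide 5 against the LV those of TOMM5 and TOMM40 were 0.019 and 0.067. That of MRPS33 was 0.18 (adjusted p = 0.0311 from limma) with weighted arrays. With the processed signal it was 0.16 (adjusted p = 0.262 from limma). It was 0.14 (adjusted p = 0.428 from limma) with the Control arrays alone and 0.25 (adjusted p = 0.305 from limma) with the CORT arrays alone. With 1 array left out it ran from 0.16 to 0.22, and that of TOMM5 from -0.24 to -0.15. The number of IVS pairs past adjustment was 0 with the processed signal and 0 with deviations within slides, 2 with cyclic loess, and between 0 and 2 with 1 array left out. The r of GRPEL1 and MRPS33 in the IVS was -0.63 with the processed signal (permutation, adjusted 0.105), -0.42 within slides, -0.70 without the 2 farthest arrays, and from -0.85 to -0.69 with 1 array left out. The causes were not tested.

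LV and IVS arrays of a replicate number had correlations of deviations from -0.21 to 0.62. Of 16 LV arrays, 6 were most like the IVS array of their number. For Control and CORT, of different lambs, these were -0.15 to 0.41 and 3 of 16. The numbers may mark lambs, but main fits use no pairs. With the replicate block the members' cortisol differences were by design as without it. Within a tissue that block joins Control and CORT arrays of the same number, which are of different lambs and are not pairs. Its counts of 536 LV and 639 IVS probes with an unadjusted p under 0.05 are therefore given as values only. Between tissues 1455 probes passed under the block, and the adjusted p of limma for TOMM5 and MRPS33 were 0.0517 and 0.0801. All 6 probes passed the limit on dim probes on every array, but the LV difference of TOMM40 was 0.20 with an offset of 16 and 0.16 with no background correction, so that background handling limits its size.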
